A study of Homo sapiens with 8 samples.

Results

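Long intergenic non-coding RNAs with symbols beginning LINC were followed in HEK293 cells, a human embryonic kidney line, with and without knock-out (KO) of TIP60. TIP60 is the acetyltransferase encoded by KAT5. The rows were chosen by level: every gene whose RefSeq symbol begins with LINC and whose raw count summed over the 8 libraries reached 100. This rule kept 88 of 1325 LINC rows, or 6.64%, among 27936 genes in all. Of the rest, 690 LINC rows were never counted and 547 had 1 to 99 counts. All 88 passed the filter on low counts and were tested. The lowest totals kept were those of LINC00921 (104 counts, 54 control and 50 KO), LINC00852 (105, 55 and 50) and LINC01145 (106, 58 and 48), and the highest totals left out were those of LINC01504 (99, 30 and 69), LINC01424 (97, 39 and 58) and LINC00115 (96, 34 and 62).

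The 8 libraries were 4 labelled TIP60 KO (genotype HEKg1/C9) and 4 labelled control (genotype HEKg1), and each arm held 2 libraries with sgRNA1 and 2 with sgRNA2. Guide expression had been induced in all 8 with doxycycline at 1 µg/ml for 3 days. The labels do not say what C9 stands for, what the guides target, or whether the KO cells are a clone or a mixed population, and nothing in them says that replicates came from separate cultures, so that p-values measure the spread between these libraries only. Gene counts per library ran from 3723992 (control sgRNA1 replicate 2) to 18841774. KAT5 itself ranged from 18.0 to 20.2 CPM (read counts scaled to normalised library size) with KO and from 44.5 to 49.0 without, a log2 fold change of -1.32 ± 0.06 (SE). Of the HEK293 markers, NEFM averaged 12399 CPM in KO and 8379 in control, while PAX2 averaged 0.901 and 0.706, and PAX8 had 8 counts in all. NEFM, NEFL and NES were called higher, and WT1 (-0.41) and VIM (-0.30) lower. The endothelial list of 4 genes summed to 2.78 to 3.79 CPM in KO and 0 to 0.404 in control, most of it KDR, and the 3 hepatocyte markers to 0.234 to 0.594 and 0 to 0.0690. The 5 leukocyte markers summed to 6.68 to 7.57 CPM in KO against 3.77 to 5.49, nearly all CD68. The 5 fibroblast markers summed to 24.7 to 27.2 against 18.6 to 27.9, and the 5 epithelial ones to 13.2 to 16.1 against 16.8 to 20.9, with KRT20 at 0 throughout. Their part in the results on LINC RNAs was not tested.

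The LINC symbols name RNAs transcribed between protein-coding genes, spliced and polyadenylated in many cases but without a long reading frame. Most are present at few copies per cell, many are restricted to a few cell types, and many are short-lived in the nucleus, where the RNA exosome degrades them. TIP60 acetylates histones and other proteins as part of the NuA4/TIP60 complex, which also exchanges the histone variant H2A.Z at promoters.

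Start-region sequences help show what kinds of promoter these RNAs have, and are given for 4 of the RNAs that rose and 1 that fell. Each window runs from 250 bases before to 50 bases after a transcript start of RefSeq (GRCh38.p14), 5′ to 3′ on the RNA's strand. Capitals mark matches, on either strand, to any of 6 motifs: the TATA box TATAAA, the motif TGANTCA bound by AP-1, the cyclic AMP response element (CRE) TGACGTCA, the E-box CACGTG, the SP and KLF motif GGGCGG, and the CCAAT box. A motif of the factor NRF1 was also searched and is not marked. A match describes letters in the window and is not a bound site. LINC00673 (chr17:72592755-72593054, minus strand) has 26 CpG and 2 SP and KLF motifs, and LINC01569 (chr16:4253740-4254039, minus strand) has 39 CpG and 3 such motifs. The window of LINC01134 (chr1:3900154-3900453, plus strand) reaches over the start of C1orf174, which is transcribed the other way from 132 bases away, and holds 1 CCAAT box. LINC02606 (chr1:9428867-9429166, minus strand) carries a CRE and, unmarked, the NRF1 motif. LINC01002 (chr19:202160-202459, minus strand), which fell, has 1 CpG, 45% GC and an AP-1 motif.
LINC00673: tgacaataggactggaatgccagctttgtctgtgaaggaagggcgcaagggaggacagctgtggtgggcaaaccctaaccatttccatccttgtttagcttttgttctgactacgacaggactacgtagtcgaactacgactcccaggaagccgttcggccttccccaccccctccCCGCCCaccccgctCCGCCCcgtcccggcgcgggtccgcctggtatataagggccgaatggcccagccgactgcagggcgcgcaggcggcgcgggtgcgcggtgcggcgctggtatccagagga
LINC01569: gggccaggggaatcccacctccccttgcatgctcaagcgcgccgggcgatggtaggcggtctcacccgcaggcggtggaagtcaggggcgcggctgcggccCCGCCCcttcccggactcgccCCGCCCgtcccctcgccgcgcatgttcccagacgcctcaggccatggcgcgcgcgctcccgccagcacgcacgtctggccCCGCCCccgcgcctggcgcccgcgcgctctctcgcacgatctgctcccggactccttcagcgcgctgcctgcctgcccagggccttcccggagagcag
LINC01134: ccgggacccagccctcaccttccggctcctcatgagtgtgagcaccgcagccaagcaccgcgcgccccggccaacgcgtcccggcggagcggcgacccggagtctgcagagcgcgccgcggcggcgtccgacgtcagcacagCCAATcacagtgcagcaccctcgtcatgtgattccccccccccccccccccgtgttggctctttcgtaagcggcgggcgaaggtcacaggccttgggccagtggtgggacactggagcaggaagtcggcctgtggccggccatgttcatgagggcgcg
LINC02606: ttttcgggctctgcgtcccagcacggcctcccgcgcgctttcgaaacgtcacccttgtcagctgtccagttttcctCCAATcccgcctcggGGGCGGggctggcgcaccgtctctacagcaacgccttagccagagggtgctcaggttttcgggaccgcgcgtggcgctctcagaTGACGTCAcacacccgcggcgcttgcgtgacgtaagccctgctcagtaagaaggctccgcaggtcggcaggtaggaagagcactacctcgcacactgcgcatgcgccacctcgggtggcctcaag
LINC01002: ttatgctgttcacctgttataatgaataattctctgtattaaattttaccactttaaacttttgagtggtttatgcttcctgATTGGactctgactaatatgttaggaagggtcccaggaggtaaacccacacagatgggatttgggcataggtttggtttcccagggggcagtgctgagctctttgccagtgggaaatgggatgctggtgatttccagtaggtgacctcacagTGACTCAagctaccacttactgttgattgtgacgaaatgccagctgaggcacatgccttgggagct
No window was found in the tables for LINC01647 and LINC01554, the RNAs with the largest rises.

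In all, 67 of the 88 RNAs had at least 1 start window, 85 windows together, with some windows of a gene overlapping. Their median GC content was 59.3% and their median CpG count 17, against 62.7% and 21 over 21645 windows of protein-coding genes and 58.7% and 14 over all 35116 windows. The CCAAT box stood in 56.5% of the LINC windows, 34.7% of protein-coding windows and 34.6% of all windows. The CRE was found in 7 of 85 LINC windows (8.24%), 2.28% of protein-coding and 1.85% of all windows. The SP and KLF motif was in 60.0%, 56.8% and 44.95% of these sets, the E-box in 10.6%, 8.37% and 7.26%, and the TATA box in 12.9%, 9.40% and 11.5%. For the AP-1 motif the shares were 5.88%, 6.14% and 7.71%, and for the NRF1 motif 2.35%, 1.51% and 1.24%. Among the 10 windows of 8 RNAs that rose at least 2-fold, 6 held the SP and KLF motif, 4 the CCAAT box, 2 the CRE (both windows of LINC02606) and 1 the NRF1 motif, and none held the TATA box, the AP-1 motif or the E-box.

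The LINC RNAs were spread over 22 chromosomes, with 14 on chromosome 1 and 10 on chromosome 7. They were shorter than protein-coding genes, with a median deposited length of 2212 bases (562 to 11193) against 3934.5. The nearest protein-coding gene overlapped the gene body of 6, lay within 10 kb of 26, within 10 to 100 kb of 44, and farther from 12. At 5 loci the RNA started within 1 kb of a protein-coding start on the other strand. Of the 79 RNAs matched to GENCODE, 44 had exons that overlapped no other gene there, and for the 9 not matched the overlap is unknown. The strand setting of the counting is not stated, so where exons overlap, reads from a gene on either strand may be in the counts.

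Levels were low. The mean over the 8 libraries had a median of 3.60 CPM across the 88 RNAs (0.833 to 126), against 38.4 for protein-coding genes with the same total of 100 counts. Per kilobase of gene length the medians were 1.51 and 9.55 CPM. A pair of RNAs from chromosome 17, LINC00674 and LINC02693, held 25.7% of all 100808 LINC counts, and the top 5 held 43.5%. GENCODE lists LINC00674 as a transcribed pseudogene and LINC02693 as protein-coding. Of the 79 RNAs it holds, 55 are typed as lincRNA, 10 as processed transcripts, 6 as antisense, 5 as transcribed pseudogenes, 2 as bidirectional promoter RNAs and 1 as protein-coding. Per kilobase, LINC02381 was the highest, at 16.0 CPM, then LINC02693 at 13.2, LINC00294 at 12.03 and LINC02593 at 11.9.

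Between KO and control, 32 of the 88 RNAs were higher, 18 were lower and 38 were not called (edgeR quasi-likelihood test with guide as a term, adjusted p under 0.05 over all 14455 genes tested). That is 36.4% higher and 20.5% lower, where the test called 31.8% of all genes higher and 31.2% lower. At least 2-fold rises numbered 14 and falls 2, against 8.38% and 1.11% of all genes. The largest fall was 2.31-fold, while 6 RNAs rose 4-fold or more. The median log2 fold change was 0.11 over the LINC RNAs and 0.01 over all genes tested. All 4 KO libraries lay above all 4 controls for 27 RNAs and below them for 13, and for 48 the arms overlapped; over all genes these orders held for 27.3% and 25.6%.

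The way the RNAs were chosen favours rises, so the shares above are not like for like with those of all genes. The KO libraries together held 1.48 times the counts of the controls, so that an unchanged gene reached a total of 100 with about 40.4 control counts. A row with fewer could enter only by being higher in KO. All 10 RNAs under 40 control counts were called higher, and 9 of them by 2-fold or more; of 383 protein-coding genes with the same total and under 40 control counts, 89.6% were called higher and none lower. These counts follow from the rule and carry no information on direction.

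**Figure D1:**
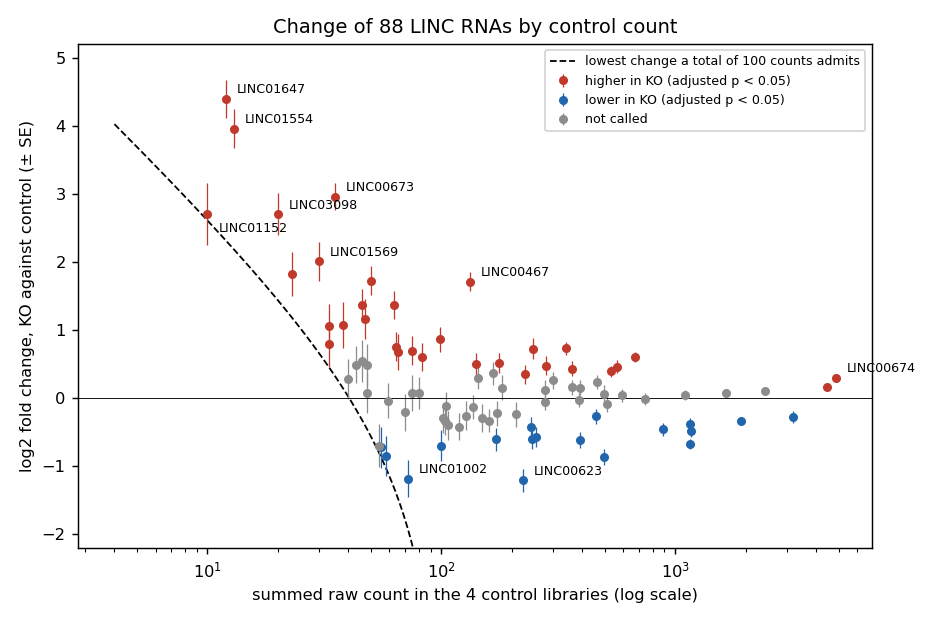
Each point is 1 of the 88 LINC RNAs: its summed raw count in the 4 control libraries (x axis, log scale) against its log2 fold change, KO against control (y axis, bars ± SE), coloured by call. The dashed line is the lowest change that a total of 100 counts admits at these depths; the 10 RNAs left of 40 control counts could only be higher, and from 100 control counts on, rises and falls both occur.

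From 100 control counts upward the rule does not act. There, 13 of 56 LINC RNAs rose (23.2%) and 15 fell (26.8%). Their median log2 fold change was -0.04, with 1 change of 2-fold or more in each direction. Protein-coding genes weighted to the same bins of control count were 33.9% higher and 24.9% lower, and 7.44% of them rose at least 2-fold. In the bin from 100 to under 300 control counts, 6 of 28 LINC RNAs rose and 6 fell, with a median of -0.23, while 36.4% of 1222 protein-coding genes rose and 16.7% fell, with a median of 0.16. From 300 to under 1000 control counts, 5 of 18 rose and 4 fell (protein-coding 33.9% and 27.4%), and with 1000 or more, 2 of 10 rose and 5 fell (26.7% and 43.2%). With 40 to 99 control counts, 9 of 22 rose and 3 fell, with a median of 0.49 (protein-coding 42.3%, 3.99% and 0.45). Across all bins weighted to the LINC RNAs, 42.3% of protein-coding genes were higher, 16.8% lower and 19.9% at least 2-fold higher, beside 36.4%, 20.5% and 15.9% of the LINC RNAs. These shares were not tested against each other.

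**Figure D2:**
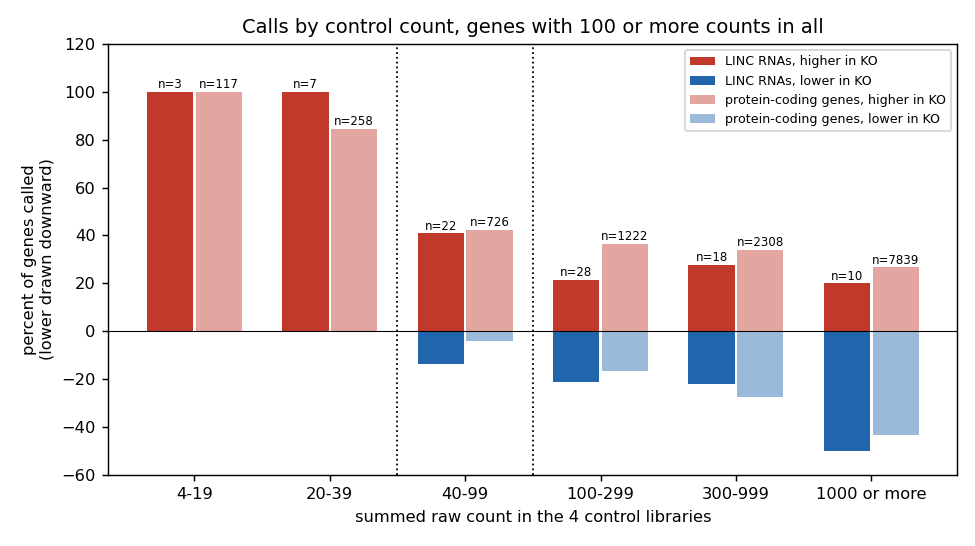
Percent of genes called higher (upward bars) and lower (downward bars) in KO, by summed raw count in the 4 control libraries (x axis), for LINC RNAs (dark) and protein-coding genes (light) with a total of 100 counts or more; n is the number of genes in each bin. Left of the first dotted line a gene must be higher to be included, and right of the second dotted line the total does not constrain direction: there LINC RNAs were called higher in 6 of 28, 5 of 18 and 2 of 10 cases and protein-coding genes in 36.4%, 33.9% and 26.7%.

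Choosing with one guide and measuring with the other keeps the choice out of the libraries measured, though a row with few control counts still enters only by being high in the KO libraries of the choosing guide. With at least 50 counts in the 4 sgRNA1 libraries, 84 LINC rows were chosen, and in the sgRNA2 libraries 23 of them rose (27.4%) and 12 fell (14.3%), with a median change of 0.18; protein-coding genes chosen alike rose in 26.0% and fell in 28.1% of cases. The reverse choice took 95 rows, of which 26 rose (27.4%) and 13 fell (13.7%) with sgRNA1, with a median of 0.15 (protein-coding genes 24.9% and 25.8%). These shares are not matched for level. Of genes chosen with sgRNA1, 9600 of 12378 protein-coding genes were at 10 CPM or more in its controls, against 22 of 84 LINC rows. The low levels are given as values only, since the choice favours rises there. Of the rows under 1 CPM in the controls of the choosing guide, 8 of 13 rose with sgRNA2 and 9 of 18 with sgRNA1, and none fell; protein-coding genes at that level rose in 73.5% and 60.6% of cases. From 1 to 3 CPM, 4 of 23 rose with sgRNA2 and 8 of 26 with sgRNA1, beside 35.0% and 33.1% of protein-coding genes. At 10 CPM or more, 5 of 22 rose and 7 fell with sgRNA2, and 4 of 21 rose and 7 fell with sgRNA1. Protein-coding genes there rose in 22.7% and 21.7% of cases and fell in 33.5% and 31.7%.

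The largest differences were those of RNAs nearly unread in control cells. They are given first and, where the control count was under 40, as values without a test, since the rule admits such RNAs only when they are high in KO.

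LINC01647 (Entrez 101929181, chr1:11609531-11613355) had 114 and 92 counts in the KO sgRNA1 libraries, 124 and 73 in KO sgRNA2, and 3 in each of the 4 controls. In CPM that was 6.66, 6.83, 6.48 and 4.83 against 0.242, 0.808, 0.207 and 0.244, a log2 fold change of 4.40 ± 0.28. The arms did not overlap; the difference was 4.13 ± 0.41 with sgRNA1 and 4.62 ± 0.39 with sgRNA2. LINC01554 (chr5:95852232-95860133), described as reduced in liver cancer, stood at 5.14 and 5.27 CPM in KO sgRNA1 and 4.91 and 4.23 in KO sgRNA2, against 0.323, 0, 0.276 and 0.407 in the controls, which had 4, 0, 4 and 5 counts. Its change was 4.34 ± 0.46 with sgRNA1 and 3.74 ± 0.36 with sgRNA2. ELL2, the elongation factor gene 24965 bases away, rose by 0.90 ± 0.05, from a mean of 42.9 to 80.9 CPM.

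LINC00673, reported to control the phosphatase SHP2 in pancreatic cells, lies on chromosome 17 between SOX9 and SLC39A11 (chr17:72403322-72592804), and its CpG-rich start is shown above. It had 106, 85, 137 and 87 counts in the KO libraries and 9, 3, 11 and 12 in the controls, which is 6.19, 6.31, 7.16 and 5.76 CPM against 0.727, 0.808, 0.759 and 0.976. With sgRNA1 the log2 fold change was 3.05 ± 0.33 and with sgRNA2 2.91 ± 0.26. SLC39A11, 53145 bases away, differed by -0.04 ± 0.08. On the other side of SOX9, LINC01152 (chr17:72030654-72041297) had 16, 21, 37 and 23 counts in KO and 1, 0, 8 and 1 in control. Its lowest KO level, 0.934 CPM, was above its highest control level, 0.552 CPM; the log2 fold change was 2.71 ± 0.46. SOX9, the transcription factor gene 79723 bases from it, was itself higher in KO, by 0.94 ± 0.10, at 20.2 against 10.1 CPM.

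LINC03098 on chromosome X had 51, 55, 59 and 41 counts in KO and 7, 5, 3 and 5 in control. That gave 2.98, 4.08, 3.08 and 2.71 CPM against 0.565, 1.35, 0.207 and 0.407, and a log2 fold change of 2.70 ± 0.31. LINC01569, whose window holds 3 SP and KLF motifs, had 2.04, 2.89, 3.03 and 3.18 CPM in KO and 0.404, 1.08, 0.552 and 1.06 in control, a change of 2.01 ± 0.28. Its neighbour TFAP4, a basic helix-loop-helix factor gene 3397 bases away, fell by 0.69 ± 0.08. LINC01426, next to RUNX1, stood at 2.16, 2.38, 1.57 and 1.92 CPM against 0.727, 0.538, 0.207 and 0.732, a change of 1.82 ± 0.32, while RUNX1 differed by 0.02 ± 0.07. In all of these the KO libraries were above every control.

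Further rises came from RNAs with more control counts. LINC00467 (chr1:211382755-211432535), reported to encode a small mitochondrial peptide, was the only RNA with 100 or more control counts to rise 2-fold. Its level was 10.3, 10.2, 10.0 and 10.3 CPM in the KO libraries and 2.99, 4.04, 2.48 and 3.58 in the controls, a log2 fold change of 1.71 ± 0.14 (edgeR adjusted p = 1.22e-09). The KO libraries were nearly equal and the controls spread, without overlap. TRAF5, 7809 bases away, fell by 0.59 ± 0.09. LINC01134, whose start faces that of C1orf174, stood at 4.44, 3.56, 3.61 and 4.04 CPM against 1.13, 1.62, 0.897 and 1.38, a log2 fold change of 1.72 ± 0.22 (edgeR adjusted p = 6.44e-07). C1orf174 moved the other way, by -0.48 ± 0.06, from 38.5 to 27.7 CPM. LINC00624 had 3.15, 4.45, 4.02 and 3.57 CPM in KO and 1.53, 1.08, 1.52 and 1.46 in control, a change of 1.37 ± 0.21, and BCL9, 23626 bases away, fell by 0.49 ± 0.06. LINC03027 rose by 1.36 ± 0.24 and LINC02606 by 1.16 ± 0.30, with 1 control library at 0 for the latter, the shallow control sgRNA1 replicate 2.

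**Figure D3:**
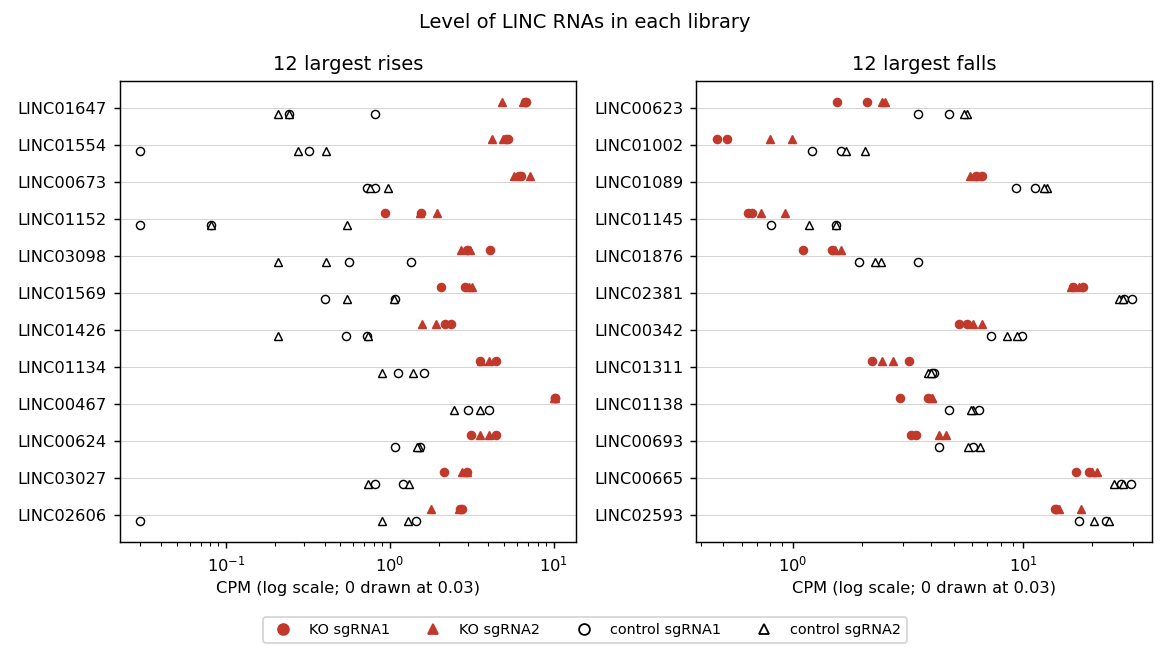
Level of the 12 LINC RNAs with the largest rises (left) and the 12 with the largest falls (right) in each of the 8 libraries, in CPM on a log axis; filled red symbols are KO and open symbols control, circles sgRNA1 and triangles sgRNA2, and a level of 0 is drawn at 0.03. LINC01647 lies at 4.83 to 6.83 CPM in KO and 0.207 to 0.808 in control, and LINC02381 at 16.1 to 18.2 against 26.0 to 29.6.

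The 18 RNAs called lower had a median of 323 control counts and a median log2 fold change of -0.60. The 32 called higher had 70 and 0.78, values that include the 10 RNAs the rule admits only as rises. With 100 or more control counts, the 15 lower RNAs had a median change of -0.57 and the 13 higher ones 0.48. LINC00623 on chromosome 1 stood at 2.10, 1.56, 2.51 and 2.45 CPM in KO and 4.76, 3.50, 5.72 and 5.53 in control, a log2 fold change of -1.21 ± 0.17 (edgeR adjusted p = 2.71e-06). It lies among the duplicated PPIAL4 and NBPF genes of the pericentromeric part of that chromosome, where near-identical copies can share reads. LINC01138 and LINC00869, also next to PPIAL4 copies, changed by -0.60 ± 0.15 and -0.42 ± 0.14, and LINC01145 by -0.84 ± 0.29. LINC01719, next to NBPF10 in the same stretch, was higher by 0.50 ± 0.17, a call lost without control sgRNA1 replicate 1 (0.36). How the authors' counting split reads among such copies is not stated, which leaves these values uncertain. LINC00869 and LINC01719 were named after their values were seen, and LINC00869 was not called without control sgRNA1 replicate 1 (-0.32) or by DESeq2 (-0.40). LINC01145 likewise lost its call by DESeq2 (-0.83) and in 3 of 8 fits with 1 library left out.

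LINC01002, near the end of chromosome 19, had 0.467, 0.520, 0.993 and 0.794 CPM in KO and 1.21, 1.62, 2.07 and 1.71 in control. The change of -1.18 ± 0.27 (edgeR adjusted p = 0.000792) went with a fall of 1.24 ± 0.18 in PLPP2, the lipid phosphatase gene 78834 bases away. LINC01089, described as a metastasis-restraining RNA that growth factor signalling lowers, stood at 6.25, 6.61, 5.90 and 6.35 CPM against 9.28, 11.3, 12.8 and 12.4 (-0.86 ± 0.12, edgeR adjusted p = 1.72e-06). Its exons overlap other genes over 41.7% of their length on its own strand (RHOF) and 48.7% on the other, so that its counts may include theirs. LINC02381, the highest per kilobase, fell in every KO library, with 18.2, 16.6, 16.1 and 17.5 CPM against 27.4, 29.6, 26.0 and 27.2 (-0.67 ± 0.07, adjusted p = 6.36e-08).

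LINC00665, reported to encode a micropeptide in breast cancer cells, had 19.3, 17.0, 19.96 and 21.0 CPM in KO and 29.5, 26.7, 27.2 and 24.7 in control, a change of -0.48 ± 0.08, and the zinc finger gene ZFP14 beside it fell by 0.93 ± 0.11. LINC01876 fell by 0.70 ± 0.23 while NR4A2, 69506 bases away, rose by 1.00. LINC00342 (-0.61 ± 0.12), LINC01311 (-0.61 ± 0.17), LINC00693 (-0.57 ± 0.14) and LINC02593 (-0.46 ± 0.09) were also called lower. LINC00852, just above the count threshold, was lower by 0.72 ± 0.30 (edgeR adjusted p = 0.0390), a call lost by DESeq2 and in 6 of 8 fits with 1 library left out. LINC00921, with a difference of -0.70 ± 0.32, was not called (0.0572).

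The most abundant LINC RNAs changed little. LINC00674 had 140, 141, 144 and 134 CPM in KO and 113, 114, 118 and 107 in control, a rise of 0.30 ± 0.05 on the log2 scale (edgeR adjusted p = 6.63e-06) with no overlap between arms. LINC02693 rose by 0.16 ± 0.04, the smallest change called. LINC01000 was lower by 0.28 ± 0.08, with 58.8 to 67.8 CPM in KO and 62.2 to 101 in control; the arms overlapped and DESeq2 did not call it. LINC00294 fell from 43.1 to 45.3 CPM to 34.4 to 36.7 (-0.33 ± 0.05). LINC00641 (0.11 ± 0.06) and LINC00205 (0.08 ± 0.06), which starts opposite POFUT2, were not called. Among other RNAs studied before, the p53-induced LINC-PINT differed by -0.11 ± 0.20, LINC00632, the locus from which the circular RNA CDR1as arises, by 0.08 ± 0.24, LINC00662 by -0.03 ± 0.10 and LINC01116 by -0.13 ± 0.18, none of them called, and LINC00472, chosen here after its values were seen, rose by 0.73 ± 0.15.

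Summed over the 88 RNAs, the level per KO library was 941 to 971 CPM (958 ± 12.6, SD, n = 4) and per control library 871 to 969 (911 ± 43.9, SD, n = 4). The arms overlapped through 1 control, the shallow sgRNA1 replicate 2 at 969; the other 3 (871, 884 and 918 CPM) lay below all KO libraries. The 14 RNAs that rose at least 2-fold made up 49.1 to 57.3 CPM of this in KO and 12.1 to 13.7 in control. These 14 were taken for rising in the same libraries, and 9 of them had under 40 control counts. Their sums, and their part in the sum over all 88, thus carry no information on direction. LINC00674 and LINC02693 together accounted for 247 to 260 and 212 to 225 CPM. The LINC RNAs outside those 14, with LINC00674 and LINC02693 included, summed to 884 to 916 CPM in KO and 858 to 956 in control.

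Below the count threshold, more LINC rows had a count in KO. With every library thinned to the 3723992 counts of the smallest, at least 1 count was found for 233 to 253 LINC rows per KO library and for 168 to 189 per control. Over the rows outside the 88 these numbers were 146 to 165 and 82 to 104, with 262 to 303 and 146 to 198 counts in all. Other genes at such levels are not given here, so a trait particular to LINC rows is not shown. Of 32 such rows that could be tested, 7 were called higher (21.9%) and 2 lower (6.25%), beside 31.8% and 31.2% of all genes. Their median SE was 0.39, against 0.07 over all genes tested, so these shares are not like for like. A row here with few control counts could pass the filter on low counts only by its KO libraries, and the reverse holds too. The calls among these rows thus partly follow from the filter.

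The effects with each guide were close to each other. The log2 fold change had the same sign with both guides for 44 RNAs that were up and 31 that were down, and opposite signs for 13, of which 0 were called in the joint fit. Within sgRNA1, 24 RNAs were called higher and 13 lower, where all genes gave 24.3% and 23.3%. Within sgRNA2 the numbers were 24 and 14, against 25.7% and 25.4% of all genes; the lower calls dropped to 5 without control sgRNA2 replicate 1 and to 7 without KO sgRNA2 replicate 1. Within sgRNA1 they dropped to 6 without KO sgRNA1 replicate 1. Calls made with both guides were 18 higher and 11 lower, and no RNA was called in opposite directions. The share of all genes called with both guides is not given here. The 18 higher calls and the 44 shared rises include RNAs under 40 control counts. The rule admits those only when high in KO, so their agreement partly follows from it. The correlation of both guides' changes across the 88 RNAs was 0.91 (Pearson) and 0.87 (Spearman), a description over genes that share libraries and were partly chosen for being high in KO.

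The difference between guides was called for 0 of 88 RNAs and for 0.0% of all genes (edgeR interaction contrast). At an unadjusted p under 0.05 it was met by 6 of the 88 RNAs and by 4.41% of all genes, so these 6 are not read as a result. The call within sgRNA1 leaned on its deeper control: without control sgRNA1 replicate 1, 9 RNAs were called higher there, and 1 guide difference was called, that of LINC01000. LINC00526 is an RNA whose values differed widely between guides. Its KO counts were 29, 41, 32 and 20, but its sgRNA1 controls had 6 and 2 counts and its sgRNA2 controls 18 and 12, giving 2.19 ± 0.51 with sgRNA1 and 0.43 ± 0.38 with sgRNA2. LINC00652 had 29, 17, 30 and 22 counts in KO and 7, 1, 18 and 22 in control. It was called higher within sgRNA1 (1.58 ± 0.51), but neither in the joint fit nor within sgRNA2 (0.02 ± 0.33). Both were singled out after their values were seen.

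**Figure D4:**
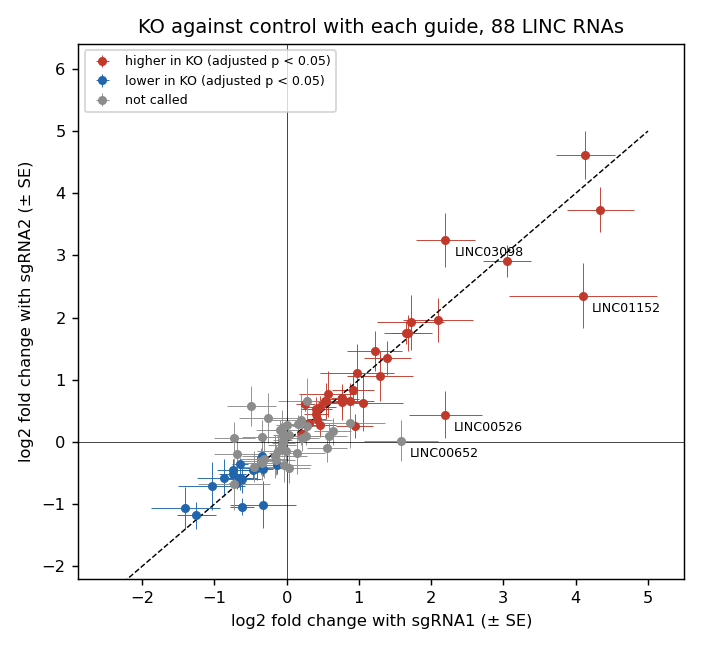
Log2 fold change, KO against control, with sgRNA1 (x axis) and with sgRNA2 (y axis) for each of the 88 LINC RNAs, with bars of ± SE and the line of equality dashed; colours give the call of the joint fit. Most points lie along the line (Pearson 0.91), and LINC00526 and LINC00652 lie to its right, with a larger change with sgRNA1.

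Neighbouring protein-coding genes seldom shared the size of the change. Of the 88 RNAs, 72 had a tested nearest protein-coding gene, and across them the log2 fold changes correlated at 0.16 (Pearson) and 0.17 (Spearman). For 13095 protein-coding genes and their own nearest tested protein-coding neighbour these values were 0.11 and 0.07. Among 26 RNAs called higher, including those under 40 control counts, 10 had a neighbour called higher. Among 14 called lower, 9 had a neighbour called lower, and 12 pairs were called in opposite directions. Of all genes tested, 31.8% were called higher and 31.2% lower, and of those with 1000 or more control counts 26.5% and 43.2%. The neighbour counts were not tested against these shares. Over the 38 pairs whose LINC RNA had no exon overlap the Pearson correlation was -0.03. Among the 11 RNAs with a tested neighbour that rose at least 2-fold, 4 neighbours were called higher and 5 lower. These 11 include RNAs under 40 control counts, which the count rule admits only as rises.

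LINC01002 and PLPP2 both fell at least 2-fold. LINC01166, with 33 control counts and so bound by the rule to be higher, had 1.06 ± 0.33. CFAP46, a cilia gene 1397 bases from it, had 2.77 ± 0.48, at 1.38 CPM in KO and 0.162 in control. LINC00960 was higher by 0.68 ± 0.26, but its call was lost without any of 4 libraries, by DESeq2 (0.69) and after thinning (0.23). FRG2C beside it, a member of a multicopy family, had 4.68 ± 0.42, at 3.23 CPM in KO and 0.0980 in control. Both neighbours were nearly unread in control and entered the test only through their KO libraries. At the start-to-start loci, LINC01547 rose by 0.73 ± 0.10 while SLX9 fell by 0.36 ± 0.07, and LINC01560 rose by 0.52 ± 0.14 while ZNF41 differed by 0.00; both were chosen after their values were seen. MKLN1, opposite LINC-PINT, differed by -0.05 and POFUT2, opposite LINC00205, by -0.04. Where 2 LINC RNAs were neighbours, LINC00526 and LINC00667, 71 bases apart on opposite strands, had log2 fold changes of 1.07 and 0.61, the first with 38 control counts and so set in direction by the rule, and LINC01128 and LINC02593, 57372 bases apart, were both lower (-0.38 and -0.46). The gap of 71 bases is that of the RefSeq gene bodies. By the exons of GENCODE, LINC00526 shares 41.2% of its exon length with LINC00667 on the other strand.

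**Figure D5:**
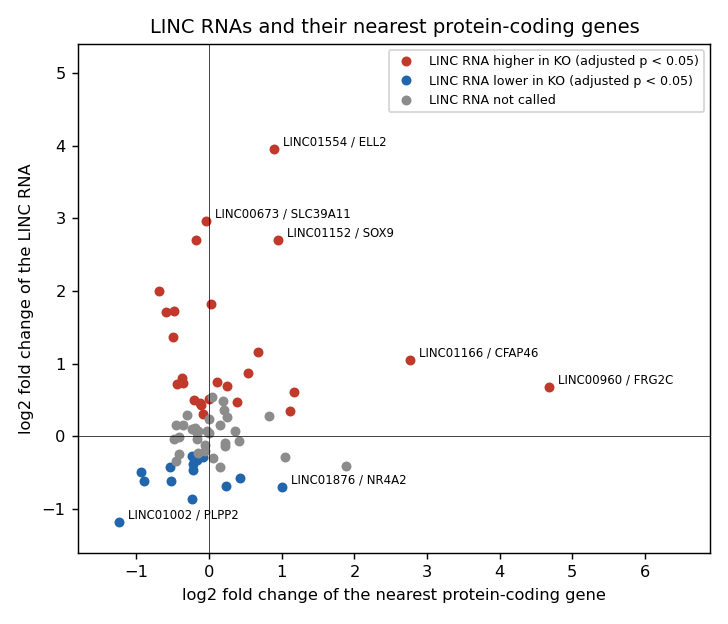
Log2 fold change of the nearest protein-coding gene (x axis) against that of the LINC RNA (y axis), KO against control, for the 72 LINC RNAs with a tested neighbour; colours give the call of the LINC RNA and some pairs are named. The points show little relation (Pearson 0.16). LINC01554, LINC00673 and LINC01152 lie above ELL2, SLC39A11 and SOX9 in their change. They had 13, 35 and 10 control counts, so the count rule admitted them only as rises.

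Other long non-coding classes with a total of 100 counts are given beside the LINC RNAs without a test of the differences. Of 281 antisense RNAs (symbols ending in -AS), 35.2% were higher and 14.9% lower, and of 80 divergent transcripts (-DT), 37.5% and 13.8%. Above 100 control counts these were 30.1% and 21.5% of 163 antisense and 29.3% and 24.4% of 41 divergent transcripts. Of 16 microRNA host genes 4 were higher and 3 lower, and of 20 small nucleolar RNA host genes (SNHG) 5 and 10. On a list of 26 well-known long non-coding RNAs with other names, 22 were tested, with 5 higher and 6 lower and a median of 0.05. HOTTIP, transcribed from the HOXA cluster, rose by 1.31 ± 0.20 and KCNQ1OT1, the imprinted antisense RNA, by 0.83 ± 0.13. TMPO-AS1 fell by 0.99 ± 0.11 and MIR17HG, host of the miR-17-92 microRNAs, by 0.85 ± 0.12.

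The machinery that removes such RNAs was also read. Of 23 genes of the nuclear RNA exosome and its adaptors, 1 was higher (ZC3H18, 0.31 ± 0.05) and 10 lower, with a median of -0.11. Of all genes tested, 31.2% were lower. Most of these 23 had 1000 or more control counts, a level at which 26.5% of genes were higher and 43.2% lower. The core subunit EXOSC2 fell by 0.44 ± 0.05, the cap-binding partner SRRT by 0.37 ± 0.04, the poly(A)-binding PABPN1 by 0.36 ± 0.06, the NEXT scaffold ZCCHC8 by 0.29 ± 0.05 and the helicase MTREX by 0.26 ± 0.05. The catalytic subunit EXOSC10 (-0.06 ± 0.04) and the nuclease DIS3 (0.00 ± 0.05) were not called. Of 24 tested genes of the Integrator complex and of cleavage and termination, 4 were higher and 7 lower, with a median of -0.03; WDR82, a partner of the termination factor ZC3H4, fell by 0.39 ± 0.05 and INTS7 rose by 0.30 ± 0.05. INTS3 was listed at 0 in all libraries. None of these genes changed 2-fold.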

How the data were processed

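RNA of 8 HEK293 samples had been made into stranded poly(A) libraries and read as 80 bp paired ends, per the labels' protocols. The values used are raw read counts per gene, 1 deposited table per library, made by the authors with featureCounts on hg38, per the submitters' processing notes. The aligner, annotation release and strand setting were not given in the sources used here. Each deposited table also lists gene length in bases, used here for levels per kilobase. Of 28395 entries, 459 had no gene ID (0.0284 to 0.0425% of counts) and were left out. Symbols, biotypes and start windows came from RefSeq GRCh38.p14, which matched 27744 of 27936 genes, and exon overlap from GENCODE, which held 79 of the 88 LINC RNAs.

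edgeR 4.0.16 was fitted to all genes with TMM factors, its filter on low counts (minimum count 10, total 15) and the guide as a term (5 residual degrees of freedom). A model of the 4 group means (4 degrees of freedom) gave effects within guides and their difference. P-values were adjusted by the Benjamini-Hochberg method over 14455 genes with a threshold of 0.05. CPM values use TMM factors, and SE is the fold change divided by the root of F. The nearest gene was taken by distance between gene bodies. The procedure was checked on simulated counts. DESeq2 1.42.0, other size factors and filters, thinning, a 1.5-fold test and leaving out each library were alternatives.

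Named RNAs are the 12 largest called rises and falls with all KO libraries beyond the controls of their own guide, the 6 highest in CPM and 4 highest per kilobase, those next to the count threshold, 10 from a list of known LINC RNAs, pairs of 2-fold neighbours, and those said to be chosen after their values were seen. The members and gene lists were chosen with earlier results of these data known. A listed HEK293 marker is not reported here.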

Additional observations from a re-analysis of the deposited data

How the results depend on the processing

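For the 47 named RNAs under the alternative settings, 725 of 786 fold changes kept direction and side of the threshold, 55 kept direction but were no longer called, 6 became called and 0 reversed. Of 32 higher and 18 lower RNAs, 25 and 14 were called in all 8 fits with 1 library left out. DESeq2 called 28 higher and 13 lower. Fewer RNAs were called when counts were thinned to the smallest library (18 higher, 11 lower, 68 tested) or when a change beyond 1.5-fold was asked for (11 and 3). The median log2 fold change was 0.15 with library totals alone, 0.16 for a summed count of 50 or more, and -0.0445 for 100 or more control counts, where 13 were higher. With a summed count of 300 or more, 19 of 55 were higher, and of 44 without exon overlap 16 were higher and 7 lower. The correlation with neighbours became -0.0275 without exon overlap. With 1 library left out, the median ran from 0.0942 to 0.1515, calls within sgRNA1 from 9 to 27 higher and 6 to 13 lower, calls within sgRNA2 from 18 to 27 higher and 5 to 16 lower, and called guide differences from 0 to 1. The fewest higher calls with sgRNA1 (9) came without control sgRNA1 replicate 1, the fewest lower calls (6) without KO sgRNA1 replicate 1, and those with sgRNA2 fell to 7 without KO sgRNA2 replicate 1 and to 5 without control sgRNA2 replicate 1. Some of these settings use fewer genes or libraries, and the cause of the changes was not tested for any setting.

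Replicate numbers in the labels did not pair the libraries: deviations from the group means correlated between same-numbered libraries at -0.09 to 0.03. With a replicate block beside the guide, 31 RNAs were higher and 19 lower, with a median of 0.11. The depth of control sgRNA1 replicate 2 (3723992 counts) limits what can be said of RNAs under 1 CPM.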
